A study of Mus musculus with 21 samples.

Results

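Expression of 4 intermediate filament genes of astrocytes was followed across forebrain RNA of 21 mice. The genes were glial fibrillary acidic protein (Gfap), vimentin (Vim), nestin (Nes) and synemin (Synm), chosen by name for the filament network that they are known to form, and each symbol matched 1 gene of the 55401 in the count table. The parental groups E2H, E3H and E4H (3 mice each) were homozygous for human APOE2, APOE3 or APOE4 in place of mouse Apoe. The tau mice, 4 each of PS/E2H, of PS/E3H and of PS/E4H, had the same homozygous APOE replacements and were heterozygous for the PS19 transgene, which encodes human tau with the P301S mutation. All 6 groups therefore lacked intact mouse Apoe. The parental mice were taken at a set age without paralysis, and the PS19 mice were taken when their hindlimbs were paralyzed. The PS19 founders came from a mixed B6/C3H stock and the APOE lines from a C57BL6 stock, so tau, paralysis, age at death and residual strain background cannot be told apart when a PS19 group is set against its parental line. Most mice were male, and per the study's methods the few females were spread unevenly, with the most in PS/E4H and none in E2H, E3H or PS/E3H. The labels do not give the sex of single mice, so sex was not in the fits, and its part in differences between these groups cannot be told apart from genotype. Each library came from the whole pulverized forebrain of 1 mouse, and in such bulk RNA more cells of a type and more RNA per cell cannot be told apart.

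Intermediate filaments are rope-like polymers that give a cell mechanical strength. In mature astrocytes the main subunit is GFAP, a type III filament protein, which co-assembles with vimentin, another type III protein. Nestin and synemin are large type IV proteins that need a partner such as vimentin to enter the filament, and nestin is best known from neural progenitor cells. A higher level of GFAP and vimentin is the classical sign of reactive astrocytes, the state that astrocytes enter after injury or disease. Vimentin is also made by endothelial cells, fibroblasts, ependymal cells and microglia, and nestin by endothelial cells and pericytes, so neither transcript belongs to astrocytes alone.

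Between 59265459 and 75932183 counts were recorded per mouse (median 63751715), and mitochondrial genes took 7.25% to 10.9% of it. The 27 pairs of mice within groups were all distinct (chi-square divided by genes, 19.2 to 79.9). E2H mouse 2 stood apart, with the highest mitochondrial share and a TMM scaling factor of 0.927. PS/E3H mouse 1 lay closest to the parental mice on the first principal component (1.83, against -33.8 to -11.99 in the other PS19 mice and 13.4 to 37.3 in the parental mice). Where a log2 difference of Gfap, Vim, Nes or Synm given here moved by over 1.5 times without either mouse, the value without it follows. The log2 differences of other genes were not checked in this way. All 12 markers of astrocytes listed for the purpose were detected in every group, and their summed level was 735 to 953 FPKM in parental mice and 954 to 1267 FPKM in PS19 mice. FPKM corrects the number of fragments for transcript length and library size and allows genes to be compared. CPM corrects the counts for library size alone, here after TMM scaling.

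In the GENCODE M21 annotation of GRCm38, Gfap (ENSMUSG00000020932) lies on chromosome 11, 102887336 to 102900912, minus strand. Vim (ENSMUSG00000026728) lies on chromosome 2, 13573927 to 13582826, plus strand, and Nes (ENSMUSG00000004891) on chromosome 3, 87971078 to 87980451, plus strand. Synm (ENSMUSG00000030554) lies on chromosome 7, 67730160 to 67759742, minus strand, 48.0 Mb from Apoe, the locus replaced in every mouse. No window of 50 bases in the exons of Gfap, Vim or Nes recurred in another gene, whereas 5.16% of the windows of Synm were shared with Ttc23 and Gm45102, genes on the opposite strand. Gfap overlaps the long noncoding RNA gene Gm26668 on the opposite strand. The libraries kept strand, but whether the counting used it is not given in the sources used here. Ttc23 was at 2.24 to 4.09 CPM and Gm45102 had at most 13 counts in a mouse, both far below Synm.

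The 250 bases before the RefSeq start of 3 of the genes (build GRCm38.p6) are shown because Gfap rose with tau whereas Nes and Synm did not pass the test, so a reader can compare what lies upstream of each. Gfap (chr11:102897201-102897450, minus strand, 55.6% G or C) is an upstream window within an intron of a longer noncoding Gfap transcript. Nes is chr3:87970843-87971092 (plus strand, 58.8% G or C) and Synm chr7:67759743-67759992 (minus strand, 70% G or C). The last bases of the Nes window lie within Nes as annotated in GENCODE M21, where the gene starts at 87971078. Capitals mark matches to any of 6 motifs searched on both strands.
Gfap: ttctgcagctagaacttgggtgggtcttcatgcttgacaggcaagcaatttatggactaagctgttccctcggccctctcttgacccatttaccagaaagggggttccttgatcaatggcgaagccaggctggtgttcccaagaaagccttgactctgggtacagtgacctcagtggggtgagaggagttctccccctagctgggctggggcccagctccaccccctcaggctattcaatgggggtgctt
Nes: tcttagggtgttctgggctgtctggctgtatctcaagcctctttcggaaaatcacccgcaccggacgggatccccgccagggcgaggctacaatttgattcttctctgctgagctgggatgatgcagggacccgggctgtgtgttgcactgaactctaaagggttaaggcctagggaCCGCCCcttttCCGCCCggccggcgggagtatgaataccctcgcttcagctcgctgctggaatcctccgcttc
Synm: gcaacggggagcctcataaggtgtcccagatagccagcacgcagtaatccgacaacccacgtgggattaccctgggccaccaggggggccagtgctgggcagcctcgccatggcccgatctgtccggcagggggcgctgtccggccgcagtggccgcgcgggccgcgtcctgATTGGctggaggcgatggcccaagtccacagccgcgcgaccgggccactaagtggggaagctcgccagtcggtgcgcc
The motifs were the STAT site TTCNNNGAA, present in 7.02% of the 32851 promoter windows of the same length, the AP-1 site TGANTCA (6.75%), the nuclear factor I site in its palindromic form (0.0365%), the CCAAT box (33.8%), the GC box GGGCGG (32.7%) and the TATA box TATAAA (12.4%). The Gfap window held none of these letters. The Nes window held 2 GC boxes, both on the reverse strand, starting 73 and 62 bases before the start site, and the Synm window held 1 reversed CCAAT box starting 78 bases before it. The matching window of Vim (58.4% G or C), which is not shown because it lies in an annotated untranslated exon of another Vim transcript, held 2 CCAAT boxes and a TATA box starting 32 bases before the start. The reversed CCAAT box and the nuclear factor I site have letters in common, but no matches overlapped. A match describes letters only, and the absence of one from these windows says nothing of the factor.

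Per transcript length, Gfap was by far the most abundant of the 4 genes in every mouse. In the 9 parental mice Gfap stood at 42.9 to 67.1 FPKM, Vim at 7.71 to 11.1 FPKM, Synm at 3.99 to 5.79 FPKM and Nes at 1.07 to 2.07 FPKM, so that the order was the same in each mouse and no 2 of the genes overlapped. Gfap ranked between 593 and 927 among all genes by FPKM in the parental mice and between 38 and 123 in the PS19 mice. Vim moved from ranks 4222 to 5498 to ranks 706 to 3845, while Nes (11110 to 13080 against 11238 to 13071) and Synm (6864 to 7945 against 5864 to 8159) had ranges that overlapped.

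**Figure D1:**
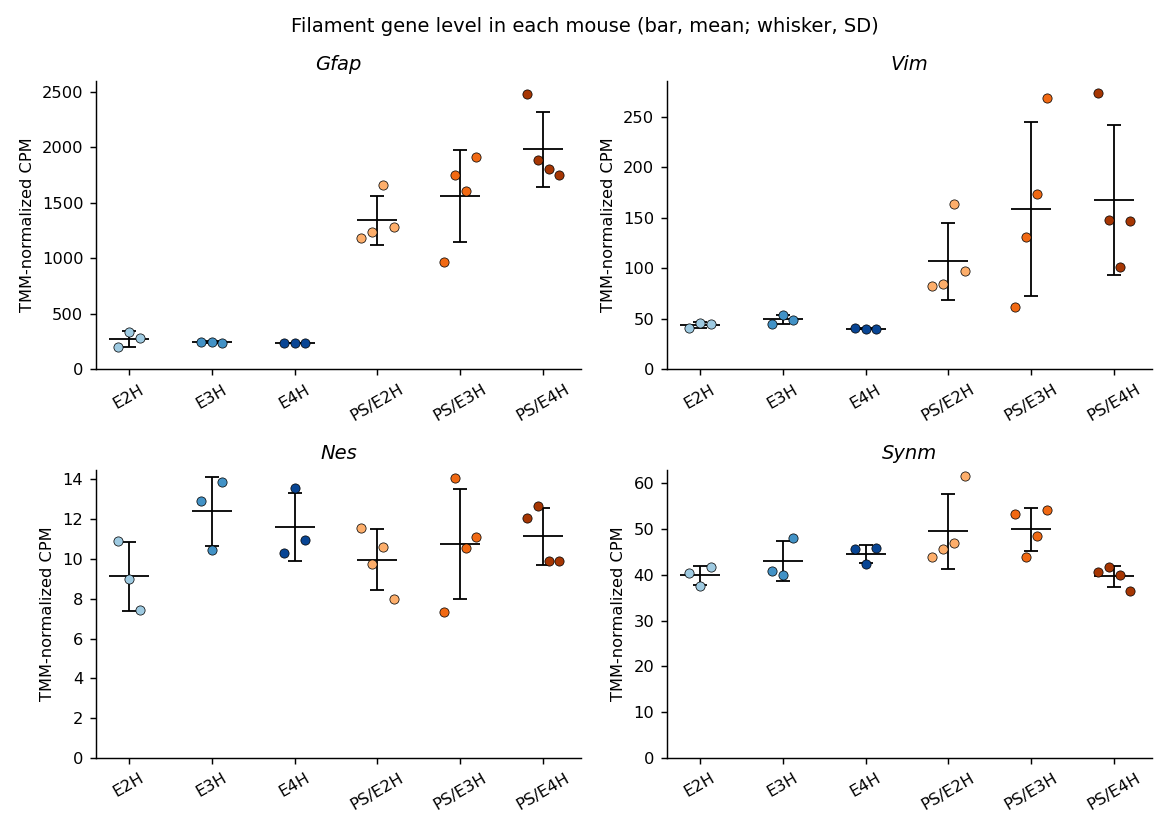
Level of each gene in each of the 21 mice, in TMM-normalized CPM, by group; points are mice, horizontal bars means and whiskers SD (n = 3 parental, n = 4 PS19). Gfap and Vim sit higher in every PS19 mouse than in every mouse of its parental line, with the lowest PS19 values, 968 and 61.4 CPM, in the same PS/E3H mouse. Nes overlaps between groups with and without tau in each line. Synm lies between 36.4 and 61.7 CPM and among the PS19 groups is lowest in PS/E4H mice (36.4 to 41.7 CPM), a level close to that of E2H mice (37.6 to 41.8 CPM).

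The first question was how tau, with paralysis, changed each gene within an APOE line. Gfap rose in all 3 lines. In E2H mice it stood at 197, 336 and 282 CPM, and in PS/E2H mice at 1184, 1236, 1661 and 1282 CPM. In E3H mice it was 246, 249.6 and 237 CPM and in PS/E3H mice 968, 1747, 1605 and 1913 CPM. In E4H mice it was 234, 234 and 233 CPM and in PS/E4H mice 2482, 1886, 1807 and 1748 CPM. The groups did not overlap in any line, and the lowest PS19 mouse of all was above the highest parental mouse of all. The fold change was 4.92 in APOE2 mice (2.30 on the log2 scale with a standard error of 0.187). The adjusted p was 0.000984 in edgeR's quasi-likelihood test, corrected over all genes by the Benjamini-Hochberg method. It was 6.32 in APOE3 mice (log2 2.66 ± 0.197 standard error, adjusted p = 0.000199, edgeR) and 8.45 in APOE4 mice (log2 3.08 ± 0.125 standard error, adjusted p = 2.34e-06, edgeR). By unadjusted p, Gfap ranked 4 of 20617 genes tested in APOE2 mice, 6 of 21251 in APOE3 mice and 2 of 20844 in APOE4 mice. In the fit of all 21 mice adjusted for APOE line it ranked 1 of 22863, with a log2 fold change of 2.68 (standard error 0.136, adjusted p = 2.26e-11). Without E2H mouse 2, whose Gfap level was the highest among the parental mice, the log2 fold change in APOE2 mice was 2.48, and without PS/E3H mouse 1 that in APOE3 mice was 2.83.

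Vim rose in all 3 lines as well, by less and with more spread between mice. It was at 40.5, 46.1 and 44.9 CPM in E2H mice and at 82.3, 84.5, 163 and 97.8 CPM in PS/E2H mice. It was at 45.2, 53.9 and 48.9 CPM in E3H mice and at 61.4, 131, 174 and 268 CPM in PS/E3H mice, where the highest and lowest mouse lay far apart. In E4H mice it was at 41.3, 40.1 and 39.5 CPM and in PS/E4H mice at 274, 148, 102 and 147 CPM. Every PS19 mouse lay above all the parental mice, although PS/E3H mouse 1, with 61.4 CPM, was close to E3H mouse 2, with 53.9 CPM. The fold change was 2.43 in APOE2 mice (log2 1.28, standard error 0.221, adjusted p = 0.0364, edgeR), 3.19 in APOE3 mice (log2 1.67, standard error 0.373, adjusted p = 0.0308, edgeR) and 4.14 in APOE4 mice (log2 2.05, standard error 0.277, adjusted p = 0.00161, edgeR). Over all 21 mice the log2 fold change was 1.67 (standard error 0.211, adjusted p = 5.12e-06, edgeR). The calls in APOE2 and APOE3 mice lie close to the threshold. The call in APOE2 mice was lost in 5 of the 7 fits that leave out 1 mouse. The adjusted p was 0.154, 0.0886 and 0.171 without E2H mouse 1, 2 or 3 and 0.0531 and 0.0584 without PS/E2H mouse 1 or 4 (edgeR). The call in APOE3 mice was also lost in 5 of 7, with adjusted p = 0.142, 0.103 and 0.118 without E3H mouse 1, 2 or 3 and 0.0602 and 0.0572 without PS/E3H mouse 3 or 4 (edgeR). Without PS/E3H mouse 1 the log2 fold change in that line was 1.94 (adjusted p = 0.000412, edgeR).

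Nes did not pass the test in any line. It was at 10.9, 8.99 and 7.46 CPM in E2H mice and at 11.5, 9.77, 10.6 and 7.97 CPM in PS/E2H mice. It was at 12.9, 10.5 and 13.9 CPM in E3H mice and at 7.33, 14.0, 10.5 and 11.1 CPM in PS/E3H mice. In E4H mice it was at 10.3, 13.6 and 10.9 CPM and in PS/E4H mice at 12.04, 12.7, 9.91 and 9.92 CPM. The groups overlapped in all 3 lines. The log2 fold changes were 0.12, -0.22 and -0.07 in APOE2, APOE3 and APOE4 mice (standard errors 0.177, 0.191 and 0.138, adjusted p = 0.883, 0.571 and 0.792, edgeR). Over all 21 mice the 95% interval of the log2 fold change was -0.27 to 0.17 (estimate -0.05, adjusted p = 0.812, edgeR), so a rise of the size seen for Vim lay outside it. Without PS/E3H mouse 1 the log2 fold change was -0.07 in APOE3 mice and 0.0042 over all mice.

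Synm also did not pass the test in any line, and its small differences pointed in opposite directions. It was at 40.3, 37.6 and 41.8 CPM in E2H mice and at 43.9, 45.5, 47.0 and 61.7 CPM in PS/E2H mice, each above the E2H mice, with PS/E2H mouse 4 highest of all 21. It was at 40.8, 40.03 and 48.0 CPM in E3H mice and at 53.2, 43.9, 48.5 and 54.2 CPM in PS/E3H mice, where the groups overlapped. In E4H mice it was at 45.7, 42.2 and 45.7 CPM and in PS/E4H mice at 40.6, 41.7, 39.96 and 36.4 CPM, each below the E4H mice. The log2 fold change was 0.31 in APOE2 mice (95% interval 0.02 to 0.59, adjusted p = 0.428, edgeR). It was 0.21 in APOE3 mice (adjusted p = 0.249, edgeR) and -0.17 in APOE4 mice (95% interval -0.33 to -0.02, adjusted p = 0.122, edgeR). Over all 21 mice the log2 fold change was 0.12 (95% interval -0.03 to 0.27, adjusted p = 0.282, edgeR). Without PS/E2H mouse 4 the difference in APOE2 mice was 0.18, the lowest of the fits that leave out 1 mouse.

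Set against the whole table, 2 of the 4 genes rose in each comparison, and none fell. The share of all genes tested that rose was 0.669% in APOE2 mice, 3.35% in APOE3 mice, 8.62% in APOE4 mice and 11.4% over all 21 mice. The share that changed in either direction was 0.752%, 5.37%, 15.6% and 21% in the same order. Groups that did not overlap, with PS19 higher, were found for 6.67% of genes in APOE2 mice, 10.5% in APOE3 mice and 15% in APOE4 mice. In all 3 lines at once this held for 2.14% of genes, Gfap and Vim among them. For Synm, with PS/E4H lower, the share of genes with the same separation was 13.8%, so its separation in that line was a common one.

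**Figure D2:**
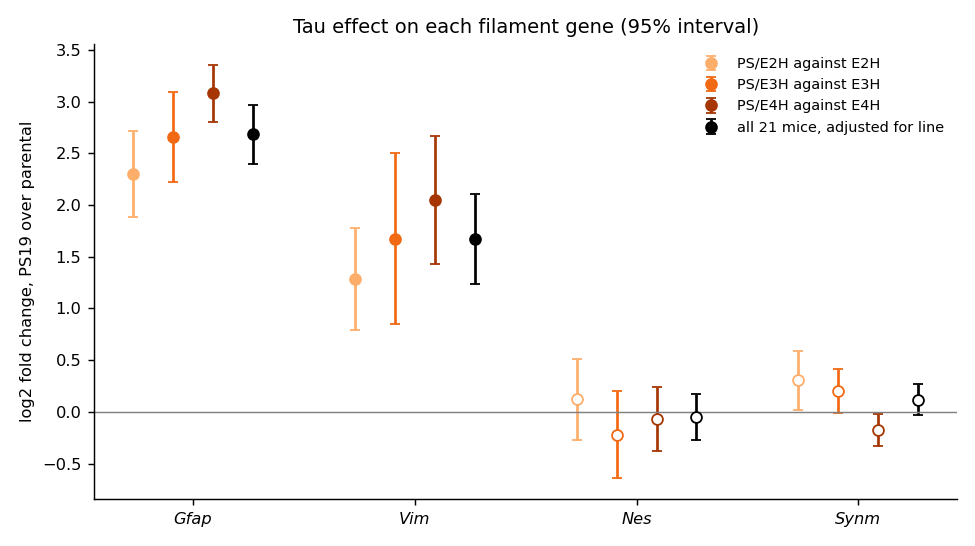
Log2 fold change of each gene between PS19 and parental mice in each APOE line and over all 21 mice adjusted for line; whiskers are 95% intervals and filled points passed the test (adjusted p under 0.05). The points of Gfap run from 2.30 to 3.08 and those of Vim from 1.28 to 2.05 across the lines, while the points of Nes and Synm are open and lie between -0.22 and 0.31.

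The second question was whether the APOE genotype itself set the level of these genes. Without tau, none of the 4 passed in edgeR. Ordered by mean level, Gfap was at 233 ± 0.222 CPM in E4H, 244 ± 6.28 CPM in E3H and 271 ± 70.2 CPM in E2H mice (SD, n = 3 each), and no neighbours in that order passed the test (adjusted p = 0.880 for E4H against E3H and 0.711 for E2H against E3H, edgeR). Vim was at 40.3 ± 0.944 CPM in E4H, 43.8 ± 2.97 CPM in E2H mice and 49.3 ± 4.37 CPM in those of E3H (SD, n = 3 each). Without E2H mouse 2 the log2 difference of Gfap between E2H and E3H went from 0.14 to -0.03 and that between E4H and E2H from -0.21 to -0.04. All 3 E4H mice were below all 3 E3H mice for Vim (log2 fold change -0.29, adjusted p = 0.331, edgeR), a separation found with E4H lower for 6.36% of genes. Gfap was separated in the same way, by -0.07 on the log2 scale. Nes was lowest in E2H mice (log2 fold change against E3H -0.45, 95% interval -0.83 to -0.07, adjusted p = 0.302, edgeR). Synm was higher in each E4H than in each E2H mouse (log2 fold change 0.17, adjusted p = 0.430, edgeR), as were 9.82% of genes. In these comparisons 0.178% (E2H against E3H), 0.162% (E4H against E3H) and 0.216% (E4H against E2H) of all genes passed in either direction. At an unadjusted p under 0.05 the 4 genes gave 1, 1 and 0 in that order. Of all genes, 2933 of 20797, 1397 of 20958 and 2570 of 20804 were under it, so such a p was common. DESeq2 passed 0 of the 4 genes in each, beside 599, 134 and 293 of all genes.

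Among PS19 mice the mean level of Gfap ran from 1341 ± 217 CPM in PS/E2H through 1558 ± 413 CPM in PS/E3H to 1981 ± 339 CPM in PS/E4H mice (SD, n = 4 each). The mean level of Vim ran from 107 ± 38.2 through 159 ± 86.6 to 168 ± 74.1 CPM in the same order. No neighbours in these orders passed the test. For Gfap the log2 fold change was -0.22 between PS/E2H and PS/E3H (adjusted p = 0.614, edgeR) and 0.34 between PS/E4H and PS/E3H (adjusted p = 0.780, edgeR). Without PS/E3H mouse 1, the lowest of its group, these were -0.39 and 0.17, and the difference of Vim between PS/E4H and PS/E3H turned from 0.07 to -0.20, so the place of PS/E3H between the other PS19 groups rests in part on that mouse. Between the ends of the order, each PS/E4H mouse had more Gfap than each PS/E2H mouse (1748 CPM and above against 1661 CPM and below). That difference was 0.56 on the log2 scale (95% interval 0.27 to 0.85) and did not pass after adjustment in edgeR (adjusted p = 0.220), whereas DESeq2 gave 0.56 with an adjusted p of 0.00451. The share of all genes that passed in this comparison was 0.119% with edgeR and 0.953% with DESeq2, and 3.47% of genes had PS/E4H mice all higher. Vim differed by 0.65 between the same groups (adjusted p = 0.3999, edgeR) and its groups overlapped.

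Among the PS19 groups Synm was the member that stood lowest in PS/E4H mice, at 39.6 ± 2.30 CPM against 49.5 ± 8.20 CPM in PS/E2H mice and 49.95 ± 4.71 CPM in those of PS/E3H (SD, n = 4 each). Every PS/E4H mouse lay below every mouse of both other PS19 groups. Against PS/E3H the log2 fold change was -0.34 (95% interval -0.52 to -0.16, adjusted p = 0.711, edgeR), and against PS/E2H it was -0.32 (adjusted p = 0.333, edgeR). By unadjusted p Synm ranked 44 of 20332 genes in the first of these, where 1324 genes were under 0.05, 0.0197% of genes passed in either direction and 1.82% of genes had PS/E4H mice all lower. In the second 3.35% had them all lower. Nes did not pass in any comparison of PS19 groups (log2 fold changes -0.11, 0.04 and 0.16, adjusted p = 0.815, 0.979 and 0.679 for PS/E2H against PS/E3H, PS/E4H against PS/E3H and PS/E4H against PS/E2H, edgeR). Without PS/E3H mouse 1 the first 2 were -0.26 and -0.10. When PS/E2H was set against PS/E3H, 0 of the 4 genes passed, also at an unadjusted p under 0.05 and in DESeq2. Of 20324 genes 0.113% passed in edgeR and 2383 had an unadjusted p under 0.05, and DESeq2 passed 148 genes. Between PS/E4H and PS/E3H 1 of the 4, Synm, had an unadjusted p under 0.05 (edgeR). Between PS/E4H and PS/E2H 3 of the 4 did, Gfap, Vim and Synm, beside 2491 of 20202 genes (edgeR).

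The third question was whether the tau effect itself differed between lines, tested as the tau by line interaction. None of the 4 genes passed, and 0% of all genes did in any of the 3 interactions (edgeR). The unadjusted p was under 0.05 for 847, 1265 and 2223 genes for APOE4 minus APOE3, APOE2 minus APOE3 and APOE4 minus APOE2. Of the 4 genes 1 (Synm), 0 and 2 (Gfap and Synm) were under it in that order (edgeR). DESeq2 passed 8, 11 and 115 genes, and none of the 4 was among those. The largest estimates were between APOE4 and APOE2. The tau effect on Gfap was 0.78 larger on the log2 scale in APOE4 mice (95% interval 0.29 to 1.27, adjusted p = 0.349, edgeR), and 0.60 without E2H mouse 2. That on Vim was 0.77 larger (95% interval -0.05 to 1.58, adjusted p = 0.524, edgeR). For Synm the difference had the other sign, -0.48 (adjusted p = 0.353, edgeR). The steps from APOE2 through APOE3 to APOE4 in the fold change of Gfap and Vim were therefore not shown to differ.

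The makeup of the filament transcripts shifted with tau. The summed FPKM of the 4 genes was 57.0 to 80.5 in parental mice and 225 to 606 in PS19 mice. Gfap supplied 75.3% to 83.4% of that sum in parental mice and 87.4% to 93.9% in PS19 mice, with no overlap. The share of Vim went from 10.2% to 14.7% in parental to 4.70% to 10.9% in PS19 mice, overlapping through PS/E3H mouse 4, although the Vim level itself rose. Nes and Synm went from 1.41% to 2.97% and from 4.96% to 8.20% in parental mice to 0.287% to 0.589% and 0.782% to 2.68% in PS19 mice. The ratio of Gfap to Vim in FPKM was 5.21 to 8.19 in parental mice and 8.02 to 19.99 in PS19 mice, lowest in PS/E3H mouse 4 and highest in PS/E4H mouse 3. The ratio of Vim to Nes, partners in one filament, went from 4.002 to 8.14 up to 9.65 to 32.7. These shares and ratios were not tested apart from the genes they are made of.

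**Figure D3:**
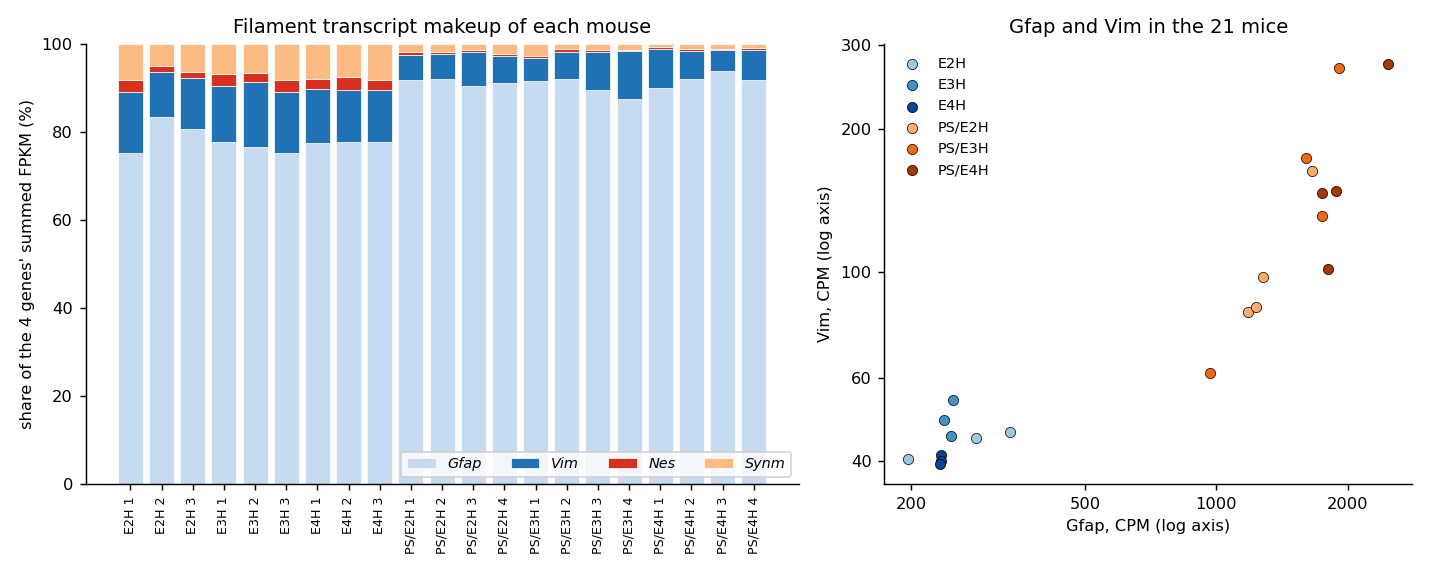
Left, share of the 4 genes' summed FPKM taken by each gene in each mouse, in percent; right, Gfap against Vim in CPM on log axes, one point per mouse, coloured by group. Gfap takes 75.3% to 83.4% in parental and 87.4% to 93.9% in PS19 mice, and on the right the 9 parental mice and the 12 PS19 mice form separate clouds, with Vim spread from 61.4 to 274 CPM among the PS19 mice.

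Markers of several cell types moved with tau beside the filament genes. Of 12 astrocyte markers, 0 rose in APOE2, 10 in APOE3, 10 in APOE4 and 12 in the fit of all mice, and none fell (edgeR), with a median log2 fold change of 0.29, 0.39, 0.52 and 0.39. The share of all genes that rose was 0.669%, 3.35%, 8.62% and 11.4% in the same order. In APOE2 mice 5 of the 12 markers had an unadjusted p under 0.05, beside 2203 of 20617 genes, and DESeq2 passed 2, beside 635 of all genes. The markers with the smallest p over all mice were Aldh1l1, a folate enzyme (log2 fold change 0.50), Gjb6, the gap junction protein connexin 30 (0.80), and Slc1a3, a glutamate transporter (0.39). The geometric mean of the 12 was 29.6 to 33.2 FPKM in parental mice and 35.3 to 47.3 FPKM in PS19 mice. Relative to it, Gfap went from 0.37 to 1.02 on the log2 scale in parental mice to 2.50 to 3.53 in PS19 mice, so the groups stayed apart. Vim went from -2.11 to -1.58 up to -1.65 to 0.22, with an overlap through PS/E3H mouse 1. For Nes, the ranges in parental (-4.96 to -3.92) and PS19 mice (-5.19 to -4.49) overlapped when lines were pooled and in APOE2 mice, but PS/E3H (-5.15 to -4.49) lay below E3H (-4.37 to -3.99) and PS/E4H (-5.04 to -4.65) below E4H (-4.39 to -3.92). For Synm, PS/E4H (-3.33 to -3.23) lay below E4H (-2.63 to -2.54), and the groups overlapped in the other lines. The astrocyte markers in the denominator rose with tau, and these ratios were not tested.

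**Figure D4:**
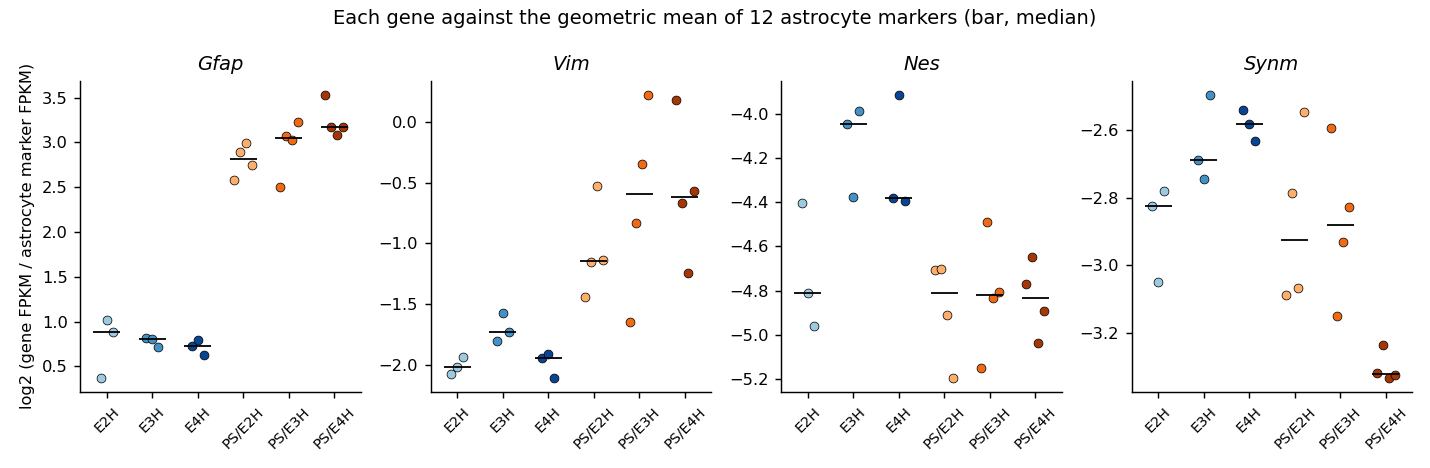
FPKM of each gene divided by the geometric mean FPKM of 12 astrocyte markers (each marker + 0.1), on the log2 scale, by group; points are mice and bars medians, and the vertical scale differs between panels. Gfap reaches 2.50 to 3.53 in PS19 mice against 0.37 to 1.02 in parental mice, while Synm is lowest in PS/E4H mice.

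Of 9 microglial markers 3, 7, 8 and 8 rose in APOE2, APOE3, APOE4 and all mice, and none fell, with medians of 0.60, 0.79, 1.02 and 0.81 on the log2 scale. Of all genes tested 0.669%, 3.35%, 8.62% and 11.4% rose in the same order. C1qa and C1qb, subunits of complement C1q, rose by 1.84 and 1.59 over all mice and Csf1r, the receptor for colony stimulating factor 1, by 0.81. Their summed level was 181 to 242 FPKM in parental and 333 to 658 FPKM in PS19 mice. Of 7 markers of fibroblasts and meninges, which also express Vim, 5 rose over all mice, Col1a2, a collagen chain, by 0.87 and Igf2, a growth factor, by 0.70, and their summed level was 13.1 to 29.8 FPKM in parental and 26.9 to 46.2 FPKM in PS19 mice. Of 10 endothelial markers 3 rose, among them Abcb1a (0.32), and 2 fell, Kdr, a receptor for vascular endothelial growth factor (-0.59), and Egfl7 (-0.37). Their summed levels were 39.1 to 51.2 FPKM in parental and 35.0 to 51.9 FPKM in PS19 mice. Pericyte and smooth muscle markers gave 3 of 9 higher (62.5 to 94.3 FPKM against 71.2 to 104 FPKM) and ependymal markers 1 of 7 higher (10.4 to 16.8 FPKM against 11.3 to 27.4 FPKM). Progenitor and neuroblast markers, where Nes would be sought first, gave 1 of 8 higher, Egfr (0.32), with sums of 4.31 to 7.52 FPKM and 5.78 to 7.51 FPKM. Oligodendrocyte markers gave 4 of 7 higher, their precursors 0 of 5 (unadjusted 2, DESeq2 0), choroid plexus 2 of 6 higher and neurons 2 higher and 4 lower of 8. No listed marker was at 3 counts or fewer in every mouse. Over all mice 11.4% of all genes tested rose and 21% passed in either direction. The 1 of 7 ependymal and 1 of 8 progenitor markers that rose are thus near the share of all genes. The ependymal markers had a median log2 fold change of 0.37. Of the 7, 4 had an unadjusted p under 0.05 (edgeR), beside 7363 of 22863 genes, and 2 were higher in DESeq2. The part of any of these markers in the filament levels was not tested.

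Among 14 lists of genes around the filament pathway, the other intermediate filament genes showed little movement. Over all 21 mice 0 of 5 neuronal filament genes passed (unadjusted 1, DESeq2 0), with a median log2 fold change of -0.04. Nefh, the heavy neurofilament subunit, had the smallest adjusted p of them (log2 fold change 0.14, adjusted p = 0.150, edgeR), at 91.3 to 187 CPM in parental and 94.1 to 177 CPM in PS19 mice. Nefm, the middle subunit (log2 fold change -0.09, adjusted p = 0.323, edgeR), was at 245 to 326 CPM in parental and 197 to 298 CPM in PS19 mice. Of 3 nuclear lamins 0 passed (unadjusted 0, DESeq2 0), with a median of 0.00, and of 3 keratins 0 passed (unadjusted 1, DESeq2 0), with a median of 0.30. Of 3 further type III and IV genes 1 rose, Bfsp2, the lens filament protein phakinin (log2 fold change 0.85, adjusted p = 0.00962, edgeR), whose level was 2.83 to 5.16 CPM in parental and 1.64 to 12.97 CPM in PS19 mice and whose adjusted p was 0.954, 0.0506 and 0.00685 in APOE2, APOE3 and APOE4 mice (edgeR). The median of all genes tested was -0.01, 11.4% of them rose, and 7363 of 22863 had an unadjusted p under 0.05.

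Genes whose proteins handle filaments moved in both directions. Over all mice 11.4% of all genes tested rose and 21% passed in either direction. A single gene that rose in a list of 5 or 9 is thus near the share of all genes. Among 9 linkers, 4 fell and 0 rose over all mice, with Dmd, which encodes dystrophin, at -0.28 and Plec, which encodes plectin, a linker that binds filaments, at -0.26 on the log2 scale, Utrn, which encodes utrophin, at -0.19 and Dtnb, a dystrobrevin, at -0.17. Plec fell by 0.59 in APOE4 and by 0.32 in APOE3 mice and was at 0.11 in APOE2 mice (adjusted p = 0.811, edgeR). All 4 chaperones of filaments rose over all mice: Hspb8, a small heat shock protein, by 0.88 (adjusted p = 2.15e-07, edgeR), Hspb1 by 0.81 and Bag3, a partner of Hspb8, by 0.49, and Cryab, the crystallin that accompanies GFAP, by 0.35. Hspb8 passed in each line, with 13.7 to 21.1 CPM in parental and 22.2 to 39.7 CPM in PS19 mice. Of 9 enzymes that modify filaments 1 rose, Padi2, a deiminase that acts on GFAP and vimentin (0.73, adjusted p = 0.000793, edgeR), and 2 fell, the kinases Rock2 (-0.22) and Camk2a (-0.32). Of 5 genes of filament turnover 1 rose, Capn2, the catalytic subunit of a calpain protease (0.38, adjusted p = 4.57e-07, edgeR), at 80.8 to 92.1 CPM in parental and 102 to 126 CPM in PS19 mice.

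Signalling genes known to act upstream of Gfap were read from ligand to transcription factor. Of all genes tested over all mice, 11.4% rose and 21% passed in either direction. Of 8 ligands 4 rose over all mice and 0 fell: Bmp4, a bone morphogenetic protein, by 0.90, Tgfb1, transforming growth factor beta 1, by 0.80, Cntf, ciliary neurotrophic factor, by 1.73 and Osm, oncostatin M, by 1.45 on the log2 scale. Cntf was at 0.104 to 1.36 CPM in parental and 1.45 to 5.77 CPM in PS19 mice, so the 21 mice separated at a low level. Of 10 receptors 7 rose and 1, Bmpr2, fell. Osmr, the oncostatin M receptor, rose by 1.82 (adjusted p = 1.04e-06, edgeR), from 3.09 to 5.78 CPM up to 8.69 to 28.8 CPM, and Tgfbr2 and Tgfbr1, the receptors of transforming growth factor beta, by 0.80 and 0.59. Among the transducers Stat3, a transcription factor activated by cytokine receptors, rose by 0.52, and Smad3, which carries signals of transforming growth factor beta, fell by 0.20. Stat3 passed in APOE2 and APOE4 mice (log2 fold changes 0.56 and 0.62) and was at 0.35 in APOE3 mice (adjusted p = 0.103, edgeR). Of 6 inhibitors 3 rose, among them Socs3, a feedback inhibitor of cytokine receptors that is itself induced by Stat3, by 0.84, and Ptpn11, a phosphatase, by 0.33.

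Of 12 transcription factors of astrocyte fate 2 rose and 3 fell over all mice, with a median of 0.05. Beside them 11.4% of all genes rose and 21% passed in either direction. Id3, an inhibitor of helix-loop-helix factors, rose by 0.55, and Hes5, a target of Notch, fell by 0.73, from 6.65 to 15.2 CPM in parental to 4.08 to 7.52 CPM in PS19 mice. Nfib, 1 of the nuclear factor I genes, fell by 0.17. The 10 reactive astrocyte genes other than filaments all rose over all mice, with a median of 1.77. In APOE2, APOE3 and APOE4 mice 1, 4 and 9 of them rose in edgeR, beside 0.669%, 3.35% and 8.62% of all genes. DESeq2 gave 6, 6 and 8 higher, beside 635, 2327 and 4396 of all genes in either direction. Their medians in the 3 lines were 1.84, 1.40 and 1.90. Over all mice the 10 genes ran from Lcn2, the secreted protein lipocalin 2 (5.29), and Steap4, a metalloreductase (3.50), through Serpina3n (2.14), Osmr (1.82) and Aspg (1.44) to S1pr3, a receptor for sphingosine 1-phosphate (0.87). This list holds Osmr, which is also in the receptor list, and its genes were written down with results of these mice known, so it is no independent evidence of direction. Serpina3n, a protease inhibitor, rose in each line but was already higher in E4H mice (138 to 169 CPM) than in E3H (24.9 to 28.2 CPM) and E2H mice (28.1 to 32.8 CPM), with adjusted p = 2.78e-07 and 5.86e-05 (edgeR). In edgeR it was the only listed gene that passed in any of the 6 comparisons of APOE genotypes, and neither Gfap nor Vim was higher in E4H mice. DESeq2 passed more listed genes, most of them between E2H and E3H mice, where 6 of 7 oligodendrocyte and 4 of 12 astrocyte markers were higher and 5 of 9 pericyte markers and 2 of 9 linkers lower in E2H, beside 3.52% of all genes in either direction.

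**Figure D5:**
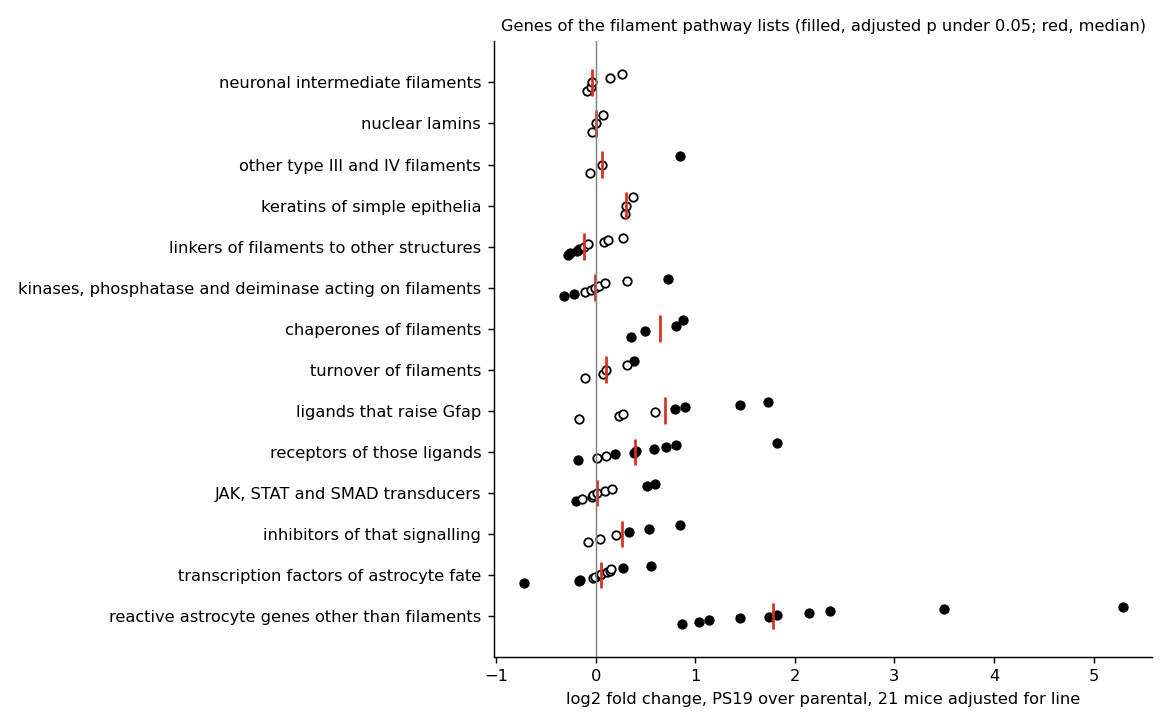
Log2 fold change over all 21 mice, adjusted for APOE line, of each gene in 14 lists around the filament pathway; filled points passed the test (adjusted p under 0.05) and red bars are list medians. The reactive astrocyte genes, the 4 chaperones and several ligands and receptors lie to the right, while the lamins and neuronal filaments sit around 0.

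Gfap and Vim also varied together between mice of one group. After the mean of each group was removed, log2 CPM of the pair correlated with Pearson's r = 0.83 and Spearman's rho = 0.84 over the 21 mice, and with r = 0.80 without PS/E3H mouse 1 and E2H mouse 1, the 2 mice farthest from the median of Gfap. Within the 12 PS19 mice r was 0.88 and rho 0.80, and r was 0.75 without PS/E3H mouse 1 and PS/E4H mouse 1. Each library gives both values, so shared composition enters these figures, which are a description. The other pairs were weaker and depended on single mice. Gfap and Nes had r = 0.34 (0.043 to 0.52 with 1 mouse left out, 0.66 within the 12 PS19 mice), Gfap and Synm -0.13 (-0.22 to -0.021, and -0.48), and Nes and Synm -0.39 (-0.48 to -0.27, and -0.52). Vim had r = 0.38 with Nes (0.11 to 0.44, and 0.56) and 0.03 with Synm (-0.090 to 0.18, and -0.17).

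Over 15773 genes with a mean of at least 1 CPM, the 5 whose variation within groups was most like that of Gfap were Cd53, H2-Ab1, Laptm5, Tcn2 and Ctsd (r from 0.86 to 0.87, and 0.95 to 0.99 with group means kept, which adds the difference between parental and PS19 mice). Vim ranked 17 in likeness to Gfap. Those most like Vim were C3, complement component 3 (r = 0.96), S1pr3, Lyz2, Steap4 and Msn (0.93 to 0.95), with Gfap at rank 50. None of the top 5 of Gfap or of Vim was in the top 5 by Spearman's rho, so these orders depend on the measure. For Nes the 5 were Cmtm7, Zfp446, Agbl2, Pacsin2 and Fgr (r from 0.80 to 0.90), of which 4 were in the top 5 by rho. For Synm they were Jade2, Emc8, Pdxk, Terf1 and Ism1 (0.80 to 0.90), of which 3 were, and neither list held another filament gene.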

How the data were processed

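Poly(A) RNA of 21 forebrains was sequenced from strand-specific libraries. Per the labels and the study's methods, the authors trimmed reads with Cutadapt, mapped them with HISAT2 and estimated levels with StringTie. They deposited a table of gene counts, with no normalization, and a table of FPKM values. How the counts were derived from the assemblies is not given in the sources used here. Columns were matched to mice by name, and groups were taken from the labels.

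Counts were tested with edgeR 4.0.16 (R 4.3.3) by its quasi-likelihood test, with TMM scaling, filterByExpr (minimum count 10, minimum total 15) and Benjamini-Hochberg adjustment over all genes tested. A gene passed at an adjusted p under 0.05, with no minimum fold. The 13 comparisons were 3 tau effects, 6 comparisons of APOE genotypes, 3 interactions and 1 tau effect over all mice with APOE line as covariate. The tests were checked on simulated counts. Alternatives were DESeq2 1.42.0, limma 3.58.1, other scalings and filters, a minimum fold of 2, one fit of all groups, a replicate block and leaving out each mouse. FPKM, as deposited, was used for levels between genes, shares and ratios (pseudocount 0.1 in the marker mean).

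The 4 genes, the 14 pathway lists and the 11 cell-type lists were chosen with earlier results of these data known. Up to 3 genes per list were named by the smallest adjusted p over all mice. Lcn2, Steap4, S1pr3, Osm, Bmpr2, Cryab and Utrn were named after their values were seen. The 5 genes most like each member were those with the highest Pearson's r of log2 CPM after group means were removed. Promoter windows came from RefSeq (GRCm38.p6) and matched all 4 genes by symbol. Gm26668 was not analysed here. A result for the transducer list is not reported here.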

Additional observations from a re-analysis of the deposited data

Results flagged for a closer look

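The tau effect on Synm pointed in opposite directions in 2 lines: each PS/E2H mouse was above each E2H mouse and each PS/E4H mouse below each E4H mouse. Such separations were common, found for 6.67% of genes in APOE2 mice (PS19 higher) and 13.8% in APOE4 mice (PS19 lower). Neither tau effect passed (adjusted p = 0.428 in APOE2 and 0.122 in APOE4 mice, edgeR). The difference of the tau effects, APOE4 minus APOE2, was -0.48 on the log2 scale (standard error 0.149, adjusted p = 0.353, edgeR interaction test), so it did not pass.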

How the results depend on the processing

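Gfap kept its direction and its side of the threshold for tau under each alternative in each line and over all mice, leave-outs included. The count of genes that passed for tau went from 2 to 1 in APOE2 mice with no filter on low counts, limma on log2(FPKM + 1) and all 6 groups in one fit (Vim, adjusted p = 0.0621, 0.0639 and 0.0583), and from 2 to 1 in APOE3 mice with no filter, limma voom and limma on log2(FPKM + 1) and log2(FPKM + 0.1) (Vim, adjusted p = 0.0640, 0.0559, 0.0916 and 0.0791). The cause was not tested. Between PS/E4H and PS/E2H mice the count went from 0 to 1 with DESeq2, through Gfap. Leaving out 1 mouse moved the counts for tau between 1 and 2 in APOE2 and in APOE3 mice.

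Some differences that did not pass changed sign when 1 mouse was left out. The log2 difference of Nes ran from -0.0012 to 0.28 for tau in APOE2 mice, from -0.14 to 0.066 for tau in APOE4 mice, from -0.10 to 0.0042 for tau over all mice, from -0.26 to 0.043 between PS/E2H and PS/E3H, from -0.10 to 0.20 between PS/E4H and PS/E3H, and from -0.0025 to 0.30 for the tau effect in APOE4 minus APOE3. That of Synm ran from -0.14 to 0.036 between PS/E2H and PS/E3H and from -0.020 to 0.15 for the tau effect in APOE2 minus APOE3. That of Vim ran from -0.27 to 0.45 between PS/E4H and PS/E3H, and that of Gfap from -0.031 to 0.33 between E2H and E3H. No other setting reversed a result.

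Pooled over all comparisons, same-numbered mice did not deviate together (median r = -0.0435 over 30 pairs, against 0.00958 over 81 pairs with different numbers). Single comparisons differed, with r = 0.039, 0.29 and 0.20 between PS/E2H and E2H mice and -0.090, -0.12 and -0.13 between PS/E4H and E4H mice. With 3 or 4 mice per group these values cannot decide whether the numbers carry a pairing. A fit with the replicate block changed no call of the 4 genes, and gave 2.67 for Gfap and 1.58 for Vim over all mice. Nes, at 473 to 1068 counts per mouse, was measured with the fewest counts of the 4 genes.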
